A study of Mus musculus with 6 samples.

Results

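Ribosome footprints of mouse oocytes matured to metaphase II under a ligand of RNA G-quadruplexes (Treat_MII, n = 2 libraries) were compared with those of fully grown oocytes before maturation (WT_FGO, n = 2). These are 4 of the 6 libraries in the series. The other 2 are control metaphase II oocytes (WT_MII), whose levels stand beside the compared ones. All 22416 gene names of the deposited table entered, and of a repeated name the entry with the highest mean was kept. Every library is labelled as wild-type oocytes from ovary, and Treat_MII alone carries the treatment label "Treat", the others "Control". By the study's methods, 4-week-old female C57BL/6 mice were given 5 IU of the gonadotropin PMSG and killed 44 h later. Their oocytes were taken with an intact nucleus (the germinal vesicle) and matured in culture medium that held either the ligand BYBX, a small molecule that stabilizes G-quadruplexes in RNA, or its solvent DMSO. The study gives DMSO for its control oocytes of both stages. WT_FGO oocytes were neither matured nor given the ligand, so stage and ligand cannot be told apart in the 4 libraries. The study reports that BYBX lowered the rate of polar body release and that treated oocytes had abnormal spindles. Metaphase II is the label of the treated pools, and the labels do not say whether these were sorted for it. Each library pools 500 oocytes, nothing says that the pools came from separate cultures, and the p-values measure the spread between pools only.

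A fully grown mouse oocyte transcribes little and lives on stored mRNA. Part of this store is translated during growth, and part is kept silent until meiosis resumes, when cytoplasmic polyadenylation lengthens short poly(A) tails and recruits ribosomes. The signal is the cytoplasmic polyadenylation element (CPE), a U-rich motif in the 3′-UTR that is bound by CPEB1 and acts together with the polyadenylation hexamer. Ribo-lite sequences the short mRNA pieces that ribosomes shield from nuclease (footprints). A footprint level in FPKM is a read number scaled for the length of the coding sequence and the size of the library. It reflects both the amount of an mRNA and its use by ribosomes. The mRNA level was not analysed here, so less mRNA and less translation per mRNA cannot be told apart in any value below.

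All 8 oocyte markers checked (the zona genes Zp1, Zp2 and Zp3, the growth factors Gdf9 and Bmp15, and Ooep, Nlrp5 and Padi6) were detected in every library, with a summed level of 37139 to 55619 FPKM in WT_FGO and 14973 to 15162 FPKM in Treat_MII. The 20 granulosa or cumulus cell markers summed to 869 and 1799 FPKM in WT_FGO, 2255 and 446 in WT_MII and 335 and 357 in Treat_MII, with 6 to 12 of them detected per library and Areg and Tnfaip6 at 0 throughout. Of 8 blood markers, 3 were detected in each WT_FGO library and 2 in each Treat_MII library, and Hba-a2, Hbb-bs, Hbb-bt and Lyz2 were at 0 throughout. In such pools fewer cells of a type and less RNA per cell cannot be told apart. The recovered depth was 94309 and 107251 reads in WT_FGO and 331304 and 275604 in Treat_MII, so a single read in 1 kb of coding sequence was worth 10.6 and 9.32 FPKM before maturation and 3.02 and 3.63 after it. Replicates differed by 1.54 in WT_FGO and 0.50 in Treat_MII (SD of the log2 ratio over genes with at least 60 reads), so levels before maturation were the less precise side.

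The ends of the mRNAs are shown first, because the element was more frequent in mRNAs that rose than in mRNAs that fell. The 30-base windows below lie in the 3′-UTR of the longest coding transcript of GENCODE M21 (GRCm38, the same assembly as mm10), in the sense of the mRNA with T for U. Capitals mark a CPE (TTTTAT or TTTTAAT, searched on the mRNA strand only) and, where it falls in the window, the hexamer AATAAA or ATTAAA. These mRNAs had more footprints in Treat_MII than in WT_FGO and carried an element in the last 100 bases.
Btg4: agataaatccctTTTTATgtctttttaaaa
Cnot7: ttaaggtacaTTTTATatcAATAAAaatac
Bub1b: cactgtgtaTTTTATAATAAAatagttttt
Wee2: tcattgtaAATAAAgaTTTTATcttatcca
Oosp3: cacaacctataAATAAAacaTTTTATtgta
Tcl1: gaatgtgtgggaTTTTATgtggttctattt
Plat: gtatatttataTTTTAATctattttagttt
Lbr: gtgcaagttgtTTTTAATttgatgtttggc
In the order of printing the windows lie at chr9:51119797-51119826 (plus strand), chr8:40493036-40493065 (minus strand), chr2:118641556-118641585 (plus strand), chr6:40466780-40466809 (plus strand), chr19:11711829-11711858 (plus strand), chr12:105216797-105216826 (minus strand), chr8:22782745-22782774 (plus strand) and chr1:181815382-181815411 (minus strand). In the Bub1b window the element and the hexamer follow each other without a gap.

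The next mRNAs had fewer footprints in Treat_MII, and neither form of the element was found anywhere in their 3′-UTR, so only the hexamer is in capitals.
Zar1: ataaagcctgtgAATAAAaggtattgcaaa
Uchl1: cttaagaggaagAATAAAactttgctggtg
Padi6: tgccatagagccAATAAAgcatggtattct
Hsp90b1: catgtgtataaaAATAAAaaaagatcccaa
Atp5e: attgactatgccAATAAAttaacatggttc
They lie at chr5:72577117-72577146 (minus strand), chr5:66687196-66687225 (plus strand), chr4:140727361-140727390 (minus strand), chr10:86690843-86690872 (minus strand) and chr2:174461081-174461110 (minus strand). There were exceptions in both directions. Mos and Tex19.1 rose without a match to either form, and Pdia3 fell with one.
Mos: atatttttaggaAATAAAgttaccacgaac
Tex19.1: gggcttttgttgAATAAAgttggtgtttta
Pdia3: tggATTAAAgtattgccctccTTTTATagc
Their windows lie at chr4:3870661-3870690 (minus strand), chr11:121148283-121148312 (plus strand) and chr2:121438654-121438683 (plus strand).

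The whole comparison was made with limma on log2(FPKM + 1) over the 15129 genes that averaged 1 FPKM or more. At an adjusted p under 0.05, 432 genes (2.86% of those tested) were higher in Treat_MII and 151 (0.998%) were lower. At this depth most tested genes rest on a handful of reads. The same fit was therefore also made over the 2707 genes with at least 60 reads in the 6 libraries together. There 733 genes (27.1%) were higher and 413 (15.3%) lower, and a count of list members below is of these genes unless it says otherwise. Of the calls over all genes, 348 rises and 97 falls were also called among the genes with at least 60 reads. For 42.4% of the 2707 genes both Treat_MII libraries lay above both WT_FGO libraries, and for 38.4% they lay below them. A minimum on the sum of reads favours genes that are high in the deeper treated libraries. With a minimum of 10 reads per 100000 that weighs both groups alike, 523 of 1660 genes were higher and 467 lower. The counts rest on both treated libraries: without Treat_MII replicate 1 or 2 they fell to 241 or 244 genes higher and to 31 genes lower, where the single library left was assumed to vary like the other groups. Over all genes the counts also rest on the shared spread of the 3 groups. When the 4 compared libraries were fitted alone, only 31 were higher and 1 lower. Among genes with at least 60 reads that fit gave 617 higher and 477 lower. Of the 151 genes that the naming rule chose, 108 lost their call without Treat_MII replicate 1 and 106 without replicate 2.

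**Figure D1:**
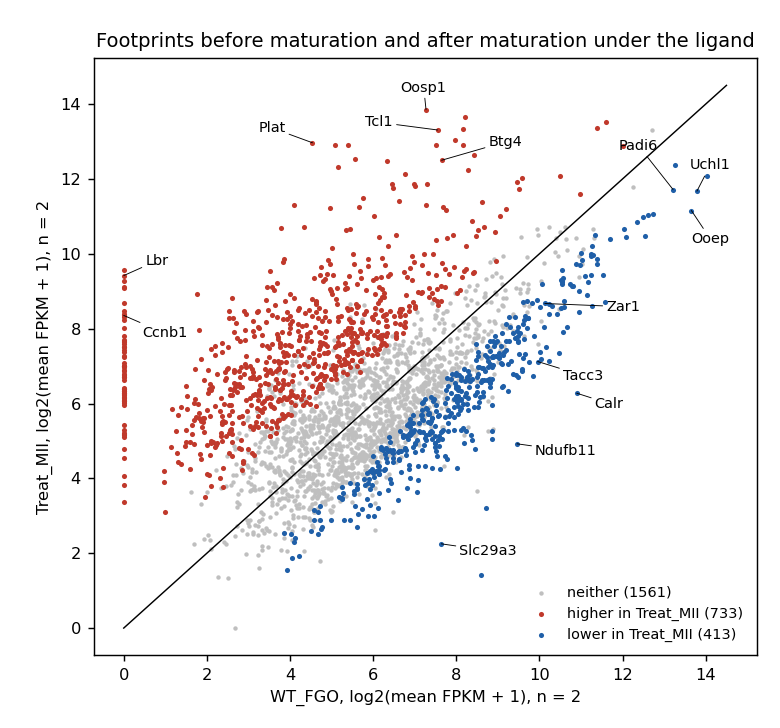
Mean footprint level before maturation (x axis, WT_FGO) and after maturation under the ligand (y axis, Treat_MII), both as log2(mean FPKM + 1) with n = 2, for the 2707 genes with at least 60 reads. Red points are the 733 genes called higher, blue points the 413 called lower, and the line marks equal levels. A column of red points at 0 on the x axis holds genes with no read before maturation, among them Lbr and Ccnb1.

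The element was more frequent in genes that rose. Among genes with a 3′-UTR of at least 100 bases, it was found somewhere in the 3′-UTR of 85.7% of the 706 genes that rose, 65.9% of the 1468 that passed in neither direction and 44.1% of the 372 that fell, against 68.2% over all 2546. In the last 100 bases the shares were 42.2%, 21.5% and 12.9%, against 25.96% over all. TTTTAAT and AATAAA can share bases (TTTTAATAAA), and without elements that overlap a hexamer the shares in the last 100 bases were 38.7%, 19.1% and 12.1%, against 23.5% over all. The hexamer itself, in the last 50 bases, was at 83.7%, 81.2% and 76.3%.

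Longer 3′-UTRs hold more matches, and genes that rose had the longer ones, with a median of 1009 bases against 637 for genes that fell. Within 3′-UTRs of 100 to 500 bases the element was present in 68.4% of the genes that rose, 34.5% of those in neither class and 17.8% of those that fell. Within 500 to 1500 bases these shares were 85.9%, 64.7% and 42.3%, and above 1500 bases 96.7%, 92.7% and 82.0%. Over 300 reads they were 83.9%, 67.0% and 40.4%, and at 60 to 120 reads 89.4%, 64.3% and 48.8%. At 120 to 300 reads they were 85.9%, 68.1% and 40.3%, so for the element anywhere in the 3′-UTR the order of the 3 classes was the same in each of these bins. For the last 100 bases it was not. Genes that rose had the highest share in every bin, but over 300 reads the shares were 41.5%, 19.8% and 20.2%, and above 1500 bases without hexamer overlap 31.5%, 20.8% and 22%. The wobble positions of codons were less GC-rich in genes that rose, with a median of 51.9% GC against 60.8% in genes that fell and 55.6% over all. Their 3′-UTRs were less GC-rich too, with a median of 39.8% GC against 45.3% in genes that fell and 42.2% over all. The element holds only A and T, so its frequency also depends on this composition. Its share at equal GC of the 3′-UTR was not tested.

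The G-quadruplex motif was searched as 4 runs of 3 or more G separated by 1 to 7 bases, which is a match of letters and not a measured structure. It was found in the 5′-UTR of 5.0% of the genes that rose and 5.6% of those that fell (6.4% over all), in the coding sequence of 2.2% and 5.3% (4.3% over all) and in the 3′-UTR of 7.0% and 9.2% (8.9% over all).

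**Figure D2:**
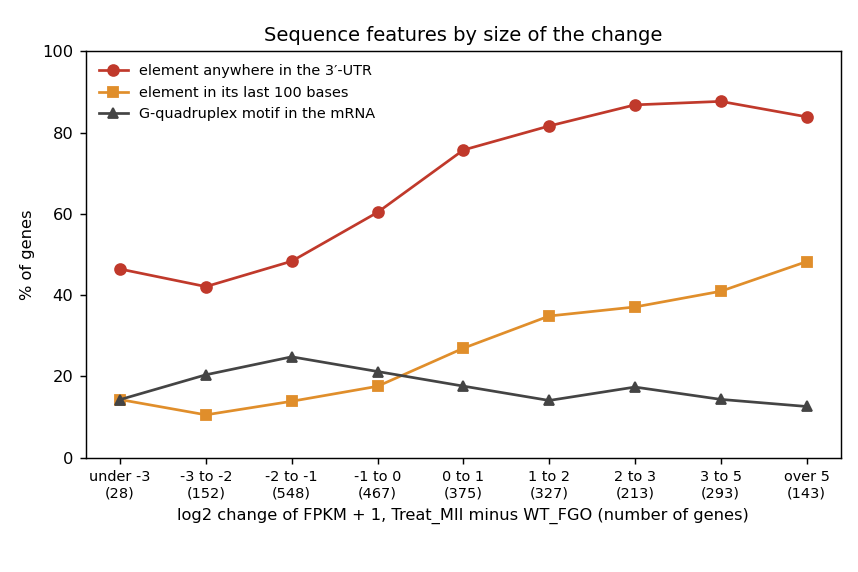
Share of genes (y axis, %) with a CPE in the 3′-UTR, with a CPE in its last 100 bases and with a G-quadruplex motif anywhere in the mRNA, in bins of the log2 change of FPKM + 1 between Treat_MII and WT_FGO (x axis, number of genes in parentheses). The share with an element in the last 100 bases was 10.5% in the bin from -3 to -2 and 48.3% in the bin over 5, whereas the motif stood at 20.4% and 12.6%.

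Some mRNAs had footprints after maturation and no read before it. By the rule used, 101 genes had no read in either WT_FGO library and at least 10 in each Treat_MII library. The treated libraries were deeper, and the lower bounds on these 101 rises ran from 1.11-fold to 42.9-fold with a median of 2.48-fold, so for many of them a large change was not shown. At a minimum of 20 reads the number was 50, and with only 1 of the WT_FGO libraries required at 0 there were 196 (without replicate 1) or 315 (without replicate 2). Among the 96 of these 101 with a 3′-UTR of at least 100 bases, 88.5% carried the element, against 68.2% of genes with at least 60 reads and 59.1% of all tested genes. In 97 of the 101, both WT_MII libraries also had reads. The 5 with the most reads in the lower treated library were Lbr, Zfp616, Tex19.1, Ccnb1 and Ifrd1.

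Lbr, a receptor of the inner nuclear membrane that also has a sterol reductase domain, had no read in WT_FGO and 422 and 356 reads (678 and 688 FPKM) in Treat_MII, which was at least 42.9-fold higher against a floor of 3 reads per library (adjusted p = 0.00075). Zfp616, a zinc finger gene, had 329 and 296 reads, at least 34.6-fold higher (adjusted p = 0.00117). Tex19.1, a germ cell gene that acts against retrotransposons, had 184 and 159 reads, at least 18.9-fold higher (adjusted p = 0.00094). All were well detected in WT_MII too, at 368 and 597 FPKM for Lbr. Ccnb1, the cyclin that activates CDK1 to drive entry into metaphase, had 120 and 132 reads against none, at least 14.1-fold higher (adjusted p = 0.00121), but 92.3% of its 28-base coding words also occur in other transcripts, so its reads could be split among copies. Ifrd1 had 107 and 101 reads, at least 11.5-fold higher (adjusted p = 0.00194).

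The 10 largest rises by the naming rule were ranked on log2(FPKM + 1). There the value of a gene with no read before maturation depends on the pseudocount, so the rank is not one of measured folds. The adjusted p-value of such a gene tests this log2 change and not the bound beside it. Plat, the secreted tissue plasminogen activator and a classical mRNA of the meiotic translation program, had 0 and 44.5 FPKM in WT_FGO and 7883 and 8133 in Treat_MII (log2 change 10.21, SE 1.59, adjusted p = 0.027). Its 2 WT_FGO libraries differed, with 0 and 8 reads against 4380 and 3759 after maturation. The library at 0 raises the log2 change, and the pooled read ratio was 338 (95% interval from the reads 171 to 783). Smim14, a small membrane protein gene, went from no read to 769 and 759 FPKM, at least 7.82-fold higher (adjusted p = 0.00075). Mbd3l2, a relative of the methyl-CpG binding protein MBD3, had 715 and 525 FPKM and was at least 14.2-fold higher (adjusted p = 0.00271). Ddit4, an inhibitor of mTOR signalling, had 413 and 407 FPKM and was at least 9.42-fold higher (adjusted p = 0.00075). Cks1b, a small subunit of cyclin-dependent kinases, was at least 3.38-fold higher on 38 and 24 reads (adjusted p = 0.00121). Smim11 and Smagp were at least 3.03-fold and 3.28-fold higher. None of these 6 was at 0 in WT_MII, where Ddit4 had 503 and 517 FPKM and Smim14 495 and 919.9.

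**Figure D3:**
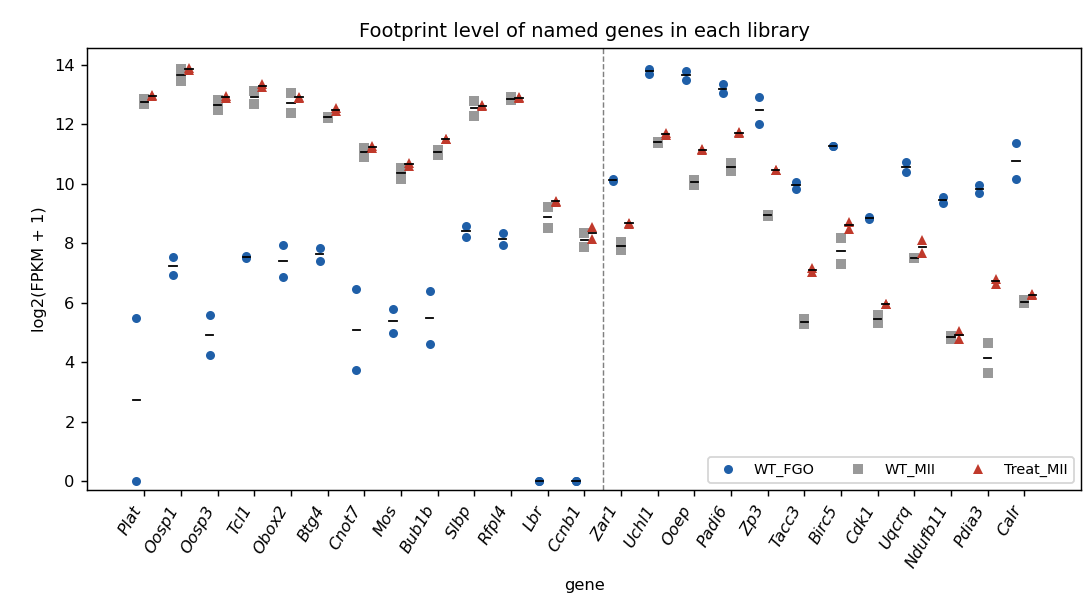
Footprint level of named genes, as log2(FPKM + 1) on the y axis, in each of the 2 libraries of WT_FGO (blue circles), WT_MII (grey squares) and Treat_MII (red triangles), with the group mean as a bar. Genes left of the dashed line were higher in Treat_MII than in WT_FGO and genes right of it lower, and for each of them the 2 groups do not overlap. Lbr and Ccnb1 lie at 0 in both WT_FGO libraries.

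The mRNAs that are known to gain translation once meiosis resumes were mostly higher. Their list, like the others, was drawn up with earlier results of these data known, so its counts are a description and no independent support. Of the 17 genes of this list, 15 had at least 60 reads, and 13 of these were higher in Treat_MII and none lower, where 27.1% of all such genes were higher. With either treated library left out, 9 were called. The summed level was 3768 and 3613 FPKM in WT_FGO and 41571 and 40978 in Treat_MII, an 11.2-fold higher mean, and 35157 and 39373 in WT_MII. The median log2 change was 4.87, or 4.21 with genes that had no read before maturation at their lower bound, against 0.13 over all genes with at least 60 reads. The element was found in 13 of 15 members. Its most abundant gene, Spin1, held 72.7% of the sum before and 25.5% after, and without it the mean was 30.5-fold higher. Btg4, Cnot7, Ccnb1 and Pabpn1l are in the list and were also followed by the study in other assays. There, BTG4, CNOT7 and cyclin B1 protein was lower with BYBX than without it. Reporters with the 3′-UTR of Pabpn1l, Btg4 or Ccnb1 were repressed by BYBX. Those assays read protein and compared oocytes with and without the ligand, so they are not the comparison made here.

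Btg4, the adaptor that brings the CCR4-NOT deadenylase to maternal mRNAs, had 169.6 and 229 FPKM in WT_FGO and 5959 and 5619 in Treat_MII (log2 change 4.87, SE 0.21, adjusted p = 0.000677). Cnot7, a catalytic deadenylase subunit, had 12.4 and 87.2 FPKM before and 2499 and 2372 after (change 6.15, SE 0.81, adjusted p = 0.0158). Both levels in Treat_MII were above all 4 other libraries for Btg4, where WT_MII had 4772 and 4869 FPKM. Slbp, which binds the stem-loop of histone mRNAs, had 297 and 387 FPKM before and 6263 and 6386 after (change 4.22, SE 0.23, adjusted p = 0.00117). Dazl, a germ cell RNA-binding protein, had 23.7 and 0 FPKM in WT_FGO and 577 and 613 in Treat_MII, and was called only among genes with at least 60 reads (adjusted p = 0.0132). The list's 2 members that were not called were Hprt, a purine salvage enzyme with 0 and 85.5 FPKM before and 462 and 338 after, and Itpr1, the calcium release channel, with 33.2 and 40.5 FPKM before and 14.6 and 25.4 after.

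Cell cycle control genes moved in both directions. Of the cyclin and CDK1 list, 5 of 10 tested members were higher and 2 lower (3 and 1 without a treated library). Wee2, the oocyte kinase that inhibits CDK1, had 19.1 and 61.6 FPKM in WT_FGO and 560.2 and 527 in Treat_MII (change 3.94, SE 0.62, adjusted p = 0.027). Cdc25a, the phosphatase that opposes it, had no read before and 43 and 36 after, at least 4.36-fold higher (adjusted p = 0.00626). Cdk1 itself had 452 and 471 FPKM in WT_FGO and 60.98 and 61.1 in Treat_MII and fell (change -2.90, SE 0.35, adjusted p = 0.0119). The kinase thus had fewer footprints after maturation while Ccnb1, its activator, had more. The other B-type cyclin, Ccnb2, was measured at 142 and 141 FPKM before and 121 and 109 after and passed in neither direction (adjusted p = 0.704 among genes with at least 60 reads).

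The Mos-MAPK list, which holds the kinases behind metaphase II arrest, showed the same split, with 3 higher and 2 lower of 6 (2 and 0 or 1 without a treated library). Mos, the kinase at its top, had 30.9 and 54.4 FPKM in WT_FGO and 1669 and 1573 in Treat_MII (change 5.27, SE 0.34, adjusted p = 0.00194). Map2k1, the kinase it activates, had 35.97 and 31.6 FPKM before and 448 and 351 after (change 3.52, SE 0.42, adjusted p = 0.011). Mapk3, the next kinase in the chain, had 269 and 221 FPKM before and 56.9 and 41.6 after (change -2.30, SE 0.42, adjusted p = 0.043). Fbxo43, the inhibitor of the anaphase-promoting complex in arrested eggs, had 0 and 24.2 FPKM before and 201 and 239.6 after, and it rose among genes with at least 60 reads (adjusted p = 0.0271).

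Of the anaphase-promoting complex and spindle checkpoint list, 6 of 15 were higher and 1 lower (5 and 0 without a treated library). Cdc20, the activator of the complex, had 1 and 2 reads in WT_FGO and 211 and 185 in Treat_MII, a ratio between the libraries of 43.8 (95% interval from the reads 14.9 to 213, adjusted p = 0.00236). The interval covers counting error alone. Bub1b, a checkpoint kinase, had 23.5 and 82.7 FPKM before and 2918 and 2887 after (change 6.002, SE 0.55, adjusted p = 0.00468). Pttg1, securin, held most of the list's summed level in both groups, at 7791 and 5658 FPKM before and 10011 and 10161 after, and passed in neither direction (adjusted p = 0.102 among genes with at least 60 reads).

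The spindle, kinetochore and chromosome segregation list had the most members with at least 60 reads, and the most called. Of these members 43.4% were higher and 11.3% lower, against 27.1% and 15.3% over all such genes. Of its tested genes, 23 of 53 members were higher and 6 lower (9 or 11 and 2 without a treated library). Kif23, a kinesin of the central spindle, had 175 and 189.6 FPKM in WT_FGO and 1292 and 1365 in Treat_MII (change 2.86, SE 0.23, adjusted p = 0.00327). Prc1, the microtubule bundler it works with, had 50.9 and 134 FPKM before and 1507 and 1388 after (change 4.11, SE 0.48, adjusted p = 0.0109). Nuf2 and Cenpn, parts of the kinetochore, changed by 4.86 ± 0.47 (SE) and 3.22 ± 0.29 (SE) on the log2 scale (adjusted p = 0.00562 and 0.00443). On the other side Tacc3, which stabilizes spindle microtubules, had 1073 and 914 FPKM before and 132 and 145 after (change -2.83, SE 0.31, adjusted p = 0.00848). Birc5, survivin of the chromosomal passenger complex, had 2459.8 and 2457 FPKM before and 421 and 359.6 after (change -2.66, SE 0.34, adjusted p = 0.0137), whereas Cdca8, another subunit of this complex, had 41.6 and 27.4 FPKM before and 311 and 277 after and rose (change 3.08, SE 0.44, adjusted p = 0.0199). Smc4, a condensin subunit, and Haus8, an augmin subunit, changed by -2.91 ± 0.50 (SE) and -1.68 ± 0.30 (SE) (adjusted p = 0.0355 and 0.0412). The summed level of the list was 10306 and 10469 FPKM in WT_FGO and 12169 and 12066 in Treat_MII. The median log2 change was 1.36 over the 53 members with at least 60 reads. Over all 93 tested members it was -0.015, against -0.53 over all genes tested.

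Genes of mRNA decay were mostly higher where called, and genes of mRNA storage more often lower. Of the deadenylation and decay list, 16 of 33 tested members were higher and 2 lower (7 and 0 without a treated library), and the summed level was 3242 and 3174 FPKM in WT_FGO and 13977 and 13648 in Treat_MII, with a median log2 change of 1.54. Btg4 made up 41.9% of the summed level after maturation, and without Btg4 and Lsm6, the leading genes after and before, the mean was still 2.95-fold higher. The median of 1.54 covers members with at least 60 reads only. Over all 70 tested members the median was -0.033, against -0.53 over all genes tested. Ythdf3, a reader of m6A in mRNA, had 3 and 3 reads before and 289 and 223 after, a ratio of 28.3 (95% interval from the reads 12.9 to 77.6, adjusted p = 0.00203). Dcp1a, an activator of decapping, had 17.4 and 35.8 FPKM before and 659 and 583 after (change 4.57, SE 0.40, adjusted p = 0.0039). The scaffold subunits Cnot1, Cnot2 and Cnot3 passed in neither direction, and among the tested CCR4-NOT genes those called were the catalytic subunits Cnot7, Cnot8 and Cnot6l. Exosc1, an exosome subunit with 13 and 10 reads before and 5 and 5 after, fell (change -2.73, SE 0.46, adjusted p = 0.0346).

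Of the storage and repressor list, 4 of 21 were higher and 7 lower, with none called when a treated library was left out, and the summed level was 5826 and 6845 FPKM before and 3979 and 3933 after (median log2 change -0.86). Zar1, which keeps maternal mRNAs in store, had 1146 and 1093 FPKM in WT_FGO and 415 and 399 in Treat_MII (change -1.46, SE 0.24, adjusted p = 0.0332). In WT_MII it had 218 and 264 FPKM. Ybx2, an mRNA-packing protein of germ cells, had 1108 and 1923 FPKM before and 663 and 641 after, and Cpeb1, which binds the element shown above, had 579 and 658 before and 363 and 275 after. Both fell only among genes with at least 60 reads (adjusted p = 0.0303 and 0.0456). Pabpn1l, a poly(A)-binding protein of the oocyte, had 2 and 3 reads before and 204 and 166 after, a ratio of 24.6 (95% interval from the reads 10.4 to 76.1, adjusted p = 0.00214). Of the whole poly(A) list 4 of 14 were higher and 4 lower (1 and 0 or 1 without a treated library). The poly(A) polymerase Tent5b had 141 and 197 FPKM before and 14.1 and 22.7 after (adjusted p = 0.0355).

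Homeobox and Tcl1 family mRNAs were mostly higher after maturation. Of the oocyte transcription factor list 6 of 10 were higher and 1 lower (3 and 0 without a treated library), and its summed level was 1157 and 1197 FPKM in WT_FGO and 16138 and 15367 in Treat_MII, 13.4-fold higher. Obox2 had 117 and 247 FPKM before and 7849 and 7561 after (change 5.49, SE 0.39, adjusted p = 0.00236), and Obox1 had 51.98 and 122 before and 3812 and 3705 after (adjusted p = 0.00303). Obox5 had 0 and 3 reads before and 770 and 571 after, a ratio of 148 (95% interval from the reads 50.7 to 721, adjusted p = 0.0347). These genes share 55.7% (Obox5) to 71.8% (Obox1) of their 28-base coding words with other transcripts, so the split of reads between Obox copies is uncertain. Lhx8, a factor of oocyte growth, went the other way, at 291 and 198 FPKM before and 37.4 and 38.5 after (change -2.63, SE 0.50, adjusted p = 0.0492). Tcl1, an activator of AKT kinase, had 191 and 182 FPKM before and 9835 and 10449 after (change 5.76, SE 0.20, adjusted p = 0.000514). Of the whole family list 7 of 11 were higher and 3 lower (3 and 1 without a treated library). The related Tcl1b1 had 2 and 2 reads before and 858 and 677 after, a ratio of 127 (95% interval from the reads 49.7 to 468, adjusted p = 0.000514). All 6 Tcl1 genes with at least 60 reads were higher, but of the 11 tested genes of the list only 1, Tcl1, held either form of the element, so the other 5 Tcl1 genes rose without a match. The Oas1 genes, paralogs of an antiviral enzyme, were split. Oas1d rose from 1615 and 1266 to 4345 and 4349 FPKM (adjusted p = 0.0133), and Oas1c fell from 1357 and 1030.3 to 150.1 and 130.3 (adjusted p = 0.00909).

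DNA replication and repair genes with at least 60 reads were more often higher than lower, which also held for all such genes. Of the replication genes 42.4% were higher and 9.1% lower, and of the repair genes 41.2% and 5.9%, against 27.1% and 15.3% over all. Over all genes tested the median log2 change was -0.21 for replication and 0.11 for repair, against -0.53. Of the replication list 14 of 33 were higher and 3 lower (5 and 0 without a treated library), and of the repair list 14 of 34 were higher and 2 lower (5 or 4 and 0). Mcm4, a subunit of the replicative helicase, had 2 and 2 reads before and 217 and 171 after, a ratio of 32.2 (95% interval from the reads 12.5 to 119, adjusted p = 0.00288). Cdc45, which joins that helicase, had no read before and 34 and 29 after, at least 3.48-fold higher (adjusted p = 0.00563). Top1, a topoisomerase, had 18.4 and 16.2 FPKM before and 376 and 350.1 after (change 4.32, SE 0.33, adjusted p = 0.00265). Chek1, a DNA damage checkpoint kinase, had 81.7 and 169.8 FPKM before and 845 and 909.6 after (change 2.89, SE 0.39, adjusted p = 0.0179). Rpa1, the single-strand binding protein, fell from 176 and 270.3 to 43.7 and 43.2 FPKM (adjusted p = 0.0445). Among chromatin regulators 9 of 25 were higher and 2 lower (2 or 3 and 1 or 0 without a treated library). The Polycomb gene Bmi1 had no read before and 171 and 161 FPKM after (adjusted p = 0.00206). Ezh2, the Polycomb methyltransferase, had 78.2 and 52.6 FPKM before and 375 and 367 after (adjusted p = 0.0182), and Uhrf1, a cofactor of DNA methylation, had 741 and 735 before and 238 and 230.4 after (adjusted p = 0.026).

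Of linker histone, nucleoplasmin and histone chaperone genes 5 of 15 were higher and 5 lower (1 and 1 without a treated library). Nap1l4, a nucleosome assembly protein, had 758 and 769.7 FPKM before and 128 and 111 after (change -2.67, SE 0.29, adjusted p = 0.00778). H1f8, the oocyte linker histone, had 2356 and 2013 FPKM in WT_FGO and 10292 and 10368 in Treat_MII (change 2.25, SE 0.18, adjusted p = 0.00303). H2bc1 had 389.6 and 391.6 FPKM before and 1767 and 2086 after (adjusted p = 0.00667). The replication-dependent histone list, whose mRNAs carry a stem-loop in place of a poly(A) tail, had 3 members called higher and 1 lower of 45 tested over all genes, and its summed level was 9330.4 and 12569 FPKM before and 13205 and 14318 after. Reads could not be recovered for nearly all of these genes, because their current names are not in the annotation used, and near-identical histone copies share reads.

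**Figure D4:**
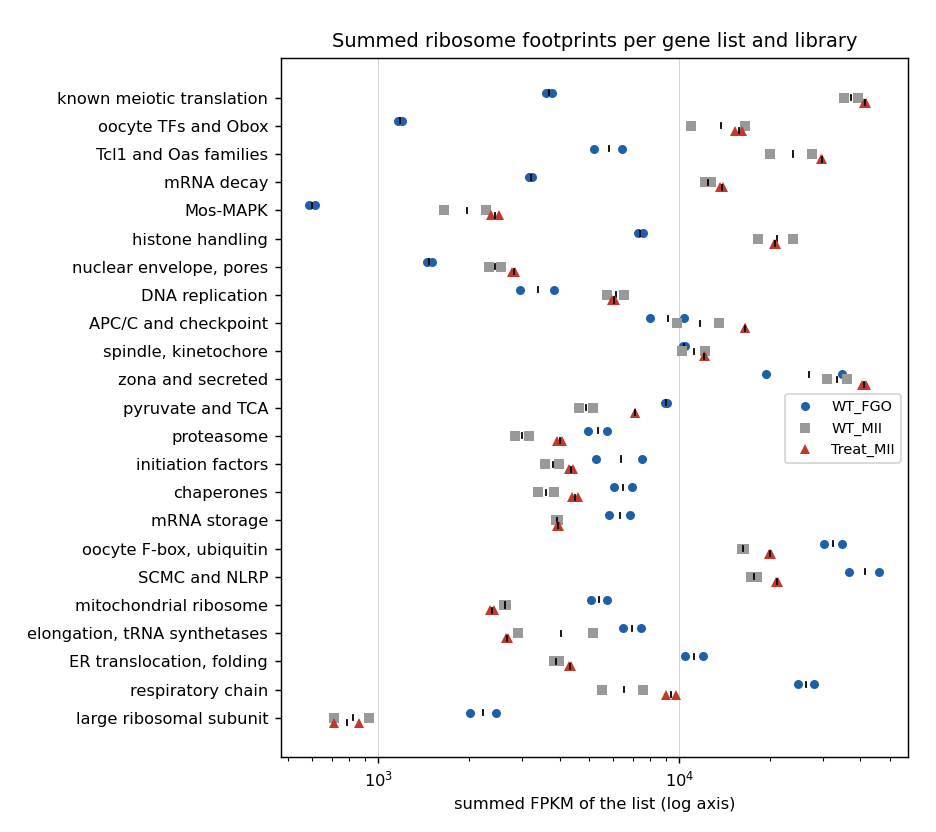
Summed FPKM (log x axis) of 23 gene lists in each library of WT_FGO (blue circles), WT_MII (grey squares) and Treat_MII (red triangles), with group means as bars. By mean sum, lists from known meiotic translation down to zona and secreted proteins lie higher in Treat_MII than in WT_FGO. The lists under them lie lower, from pyruvate and TCA genes to the large ribosomal subunit. A sum can follow a few members. Of the zona and secreted sum in Treat_MII, Oosp1 held 35.9%. The median log2 change of that list was -1.31, with 7 of 14 members lower and 3 higher.

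The reverse class, translated before maturation and less after it, included energy metabolism and the secretory pathway. Of the nuclear-encoded respiratory chain and ATP synthase genes, 27 of 86 had at least 60 reads. None of these was higher and 11 were lower (2 without a treated library), where 15.3% of all such genes were lower. Over all genes 8 of 77 were lower and none higher. The median log2 change was -1.33. The summed level was 28099.9 and 24755 FPKM in WT_FGO and 9761 and 9062 in Treat_MII, so WT_FGO was 2.81-fold higher, and 5527 and 7552 in WT_MII. Ndufb11, a complex I subunit, had 749 and 659 FPKM before and 26.7 and 32.04 after (change -4.54, SE 0.38, adjusted p = 0.00348). Uqcrq, of complex III, had 1721 and 1337 FPKM before and 205.02 and 274 after (change -2.67, SE 0.29, adjusted p = 0.00776). Atp5e, of the ATP synthase, had 4146 and 1972 FPKM before and 445 and 395 after (change -2.77, SE 0.41, adjusted p = 0.0225). For the genes encoded in the mitochondrion the summed level was 5113 and 4331 FPKM in WT_FGO and 5196 and 4438 in Treat_MII, with overlapping groups, and 1 of 7 was lower, mt-Cytb at 1576 and 1386 FPKM before and 818 and 695 after. Of pyruvate and TCA cycle enzymes 3 of 12 were lower and none higher, with none called when a treated library was left out.

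Genes of translocation, glycosylation and folding in the endoplasmic reticulum had 10 of 22 members lower and 4 higher (3 or 2 and 1 without a treated library), and a summed level of 12005 and 10451 FPKM in WT_FGO and 4293 and 4381 in Treat_MII. The median log2 change was -1.24. Calr, the calcium-binding chaperone calreticulin, had 2668 and 1143 FPKM before and 77.4 and 75.6 after and fell (change -4.50, SE 0.45, adjusted p = 0.00646). Hsp90b1, the chaperone GRP94, had 745 and 689.8 FPKM before and 90.3 and 118 after (change -2.79, SE 0.37, adjusted p = 0.0158). Pdia3, which forms disulfide bonds with calreticulin's clients, had 1001 and 831 FPKM before and 112 and 98.2 after (change -3.11, SE 0.45, adjusted p = 0.0207). Members that rose included Ssr3, of the translocon-associated complex, at 17.6 and 77.6 FPKM before and 598 and 579.6 after (adjusted p = 0.0384). Paired coat genes went apart in the vesicle list, with Copb1 rising from 18.5 and 42.4 to 518 and 508 FPKM (adjusted p = 0.00762) and Copb2, its partner in the COPI coat, falling from 160.1 and 216 to 30.02 and 33.4 (adjusted p = 0.0464).

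Genes of protein synthesis and quality control with at least 60 reads had more falls than rises. The share lower was 32% for elongation factors and synthetases, 20.8% for initiation factors, 40.9% for chaperones and 28.6% for the proteasome. Over all such genes it was 15.3%. In the fit over all genes these lists in turn had 3 of 46, 2 of 49, 3 of 80 and 0 of 47 lower, and 0, 1, 1 and 1 higher. Of elongation factors and aminoacyl-tRNA synthetases, none of 25 was higher and 8 were lower, with none called when a treated library was left out, and the summed level was 6515 and 7460.2 FPKM before and 2688 and 2660.1 after. Gars, the glycyl-tRNA synthetase, had 267 and 307 FPKM before and 63.5 and 61.4 after (adjusted p = 0.0287). Hars, for histidine, had 767 and 664 FPKM before and 211 and 184 after (adjusted p = 0.0386). Of initiation factors 5 of 24 were lower and 2 higher. Eif1ax, which scans for the start codon, had 859 and 518 FPKM before and 105 and 109 after (change -2.63, SE 0.38, adjusted p = 0.0206), and Eif2b1, of the exchange factor for eIF2, rose from 121 and 114 to 731 and 835 (adjusted p = 0.00516). Cytosolic chaperones had 9 of 22 lower and 4 higher, and proteasome subunits 6 of 21 lower and 3 higher. In the lists of initiation factors, chaperones and proteasome subunits 0 or 1 fall was called without a treated library. Large ribosomal subunit genes summed to 2008 and 2451 FPKM in WT_FGO and 710.4 and 859 in Treat_MII, but only 1 of 53 had at least 60 reads, 18 were at 0 in all 6 libraries, and processed copies share reads with them, so these levels are uncertain.

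**Figure D5:**
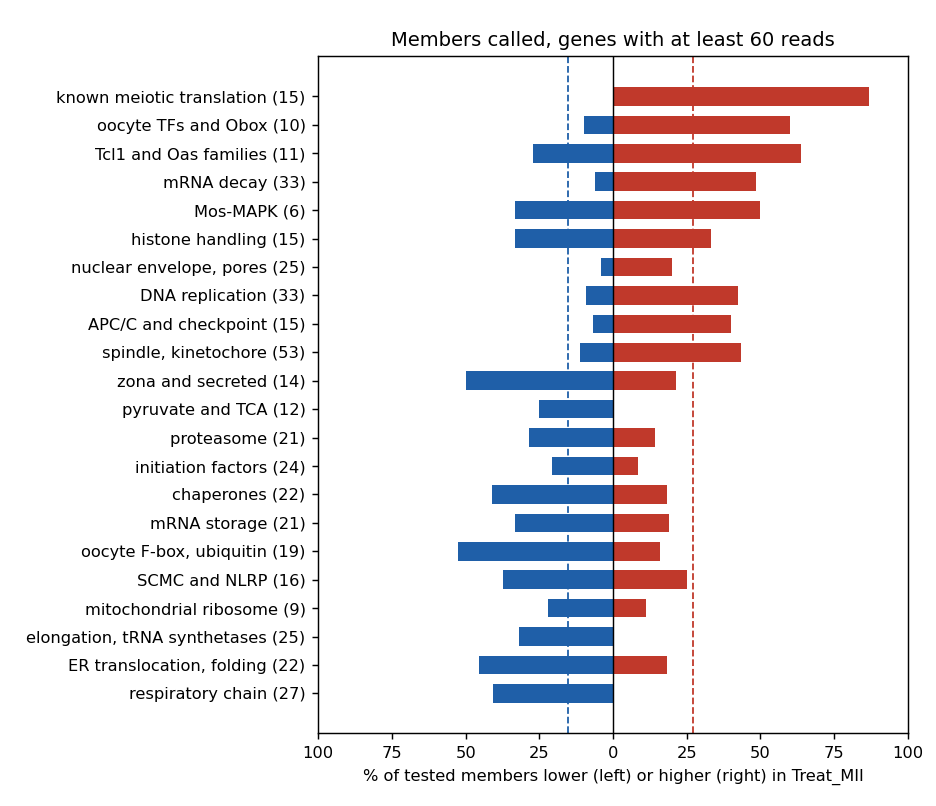
Share of tested members (x axis, %) called lower (blue, left) or higher (red, right) in Treat_MII than in WT_FGO, for lists with at least 5 members among genes with at least 60 reads (number tested in parentheses). Dashed lines mark the shares over all 2707 genes, 27.1% higher and 15.3% lower. Blue bars pass their line most clearly for F-box, zona, endoplasmic reticulum, chaperone and respiratory chain genes.

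Genes that mark the growing oocyte had members in both classes. Of zona pellucida and secreted genes 7 of 14 were lower and 3 higher, and without a treated library none was lower and 2 were higher. Zp3, the sperm-binding zona glycoprotein, had 7769 and 4164 FPKM in WT_FGO and 1419 and 1429 in Treat_MII (change -1.997, SE 0.31, adjusted p = 0.0261), and 486 and 497 in WT_MII. Bmp15, a growth factor that acts on granulosa cells, had 3841 and 2077 FPKM before and 598 and 781 after (change -2.05, SE 0.37, adjusted p = 0.043). In contrast Oosp1 and Oosp3, secreted oocyte proteins, rose to levels above these. Oosp1 had 122 and 185 FPKM before and 14459 and 15094 after (change 6.61, SE 0.25, adjusted p = 0.000514). Oosp3 had 18.1 and 47.8 FPKM before and 7518 and 7970.1 after (change 7.99, SE 0.44, adjusted p = 0.00117). Their relative Oosp2 went from 989 and 832 to 407 and 410.4 FPKM and fell among genes with at least 60 reads (adjusted p = 0.0148).

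In the subcortical maternal complex and NLRP list 6 of 16 were lower and 4 higher (1 and 1 without a treated library). Ooep, a structural member, had 14332 and 11484 FPKM in WT_FGO and 2313 and 2249 in Treat_MII (change -2.49, SE 0.18, adjusted p = 0.00235). Padi6, of the cytoplasmic lattices, had 10477 and 8544 FPKM before and 3324 and 3406 after (change -1.49, SE 0.18, adjusted p = 0.0122). Zbed3, another member of the complex, rose from 775 and 749.7 to 4232 and 4122 FPKM (change 2.45, SE 0.16, adjusted p = 0.00194), and in WT_MII it had 8995 and 7693. Among F-box and ubiquitin genes 10 of 19 were lower and 3 higher (3 and 1 without a treated library). Uchl1, a ubiquitin hydrolase and the most abundant of them before maturation, had 15009.7 and 13296 FPKM before and 3203 and 3330.1 after (change -2.11, SE 0.14, adjusted p = 0.00194). Rfpl4, a RING finger protein of the oocyte, had 246 and 325 FPKM before and 7569 and 7749.9 after (change 4.75, SE 0.19, adjusted p = 0.000563). Fbxw21, one of many F-box paralogs, had 1826 and 1440.1 FPKM before and 275 and 251 after (adjusted p = 0.0103), and its paralog Fbxw24 had 4922 and 3688 before and 1308 and 1469 after (adjusted p = 0.0156). They share 26.01% and 22.3% of their coding words with other transcripts, so the split of reads between them is uncertain.

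The remaining lists are given by their counts. Of nucleoporins and other nuclear envelope genes 5 of 25 were higher and 1 lower, and after Lbr the strongest was Nup98, a pore protein, at 35.9 and 46.6 FPKM before and 254 and 258 after (change 2.62, SE 0.34, adjusted p = 0.0154). Of small RNA and m6A genes 4 of 12 were higher and none lower. Dicer1, which cuts small RNAs, had 64.9 and 53.8 FPKM before and 241 and 244 after (change 2.02, SE 0.32, adjusted p = 0.0276). Of the mTOR and stress list 4 of 9 were higher and 1 lower. Actin genes had 3 of 16 higher and 4 lower. Anln, the actin-binding protein anillin of the cleavage furrow, had 3.01 and 5.29 FPKM before and 176 and 152 after (change 5.03, SE 0.48, adjusted p = 0.00548). Vesicle coat and SNARE genes had 3 of 21 higher and 4 lower. Genes of the egg membrane, calcium and cAMP signalling had none of 12 higher and 3 lower, among them Camk2g, the calcium-dependent kinase of egg activation, at 102 and 89.6 FPKM before and 13.7 and 5.51 after (adjusted p = 0.0493). Mitochondrial ribosomal genes had 1 of 9 higher and 2 lower. Only Smim14 and Smim11 of the small integral membrane proteins had at least 60 reads. Both had no read in WT_FGO and met this minimum through the metaphase II libraries, so their direction was set by the filter. Over all genes 3 of 12 such genes were higher, 1 was lower and 8 passed in neither direction. None of the 3 small ribosomal subunit genes with at least 60 reads was called. Leaving out a treated library gave 2 and 0 called for the nuclear envelope, 2 and 0 for small RNA genes, 2 and 0 or 1 for actin genes and 2 and 1 or 0 for vesicle genes (higher and lower).

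Single genes with the largest falls were often at a few reads after maturation. Slc29a3, a nucleoside transporter, had 34 and 23 reads in WT_FGO and 0 and 3 in Treat_MII, so WT_FGO was higher by a ratio of 57.2 (95% interval from the reads 18.6 to 286, adjusted p = 0.0385). Glrx5, a mitochondrial glutaredoxin of iron-sulfur assembly, had 24 and 25 reads before and 4 and 6 after, a ratio of 14.8 (95% interval from the reads 7.38 to 32.7, adjusted p = 0.00866). Sod1, superoxide dismutase, had 367 and 464 FPKM before and 32.7 and 23.6 after (change -3.85, SE 0.46, adjusted p = 0.0111), and Ndufv3 of complex I had 99.6 and 119 before and 2.03 and 7.31 after (adjusted p = 0.0267). Sec22b, a SNARE of the secretory pathway, Gnl3, a nucleolar GTPase, Ywhab, a 14-3-3 protein, and Dynlt1b, a dynein light chain, completed the 10 largest falls, with changes of -3.87 ± 0.66 (SE), -3.83 ± 0.73 (SE), -3.81 ± 0.69 (SE) and -3.74 ± 0.70 (SE). Dynlt1b shares 93.3% of its coding words with other transcripts. Sec22b, Gnl3 and Ywhab were at 0 in both WT_MII libraries. Loss of all reads is harder to reach in the deeper treated libraries than absence before maturation. With that limit, 5 genes had no read in Treat_MII and at least 5 in each WT_FGO library, namely Nudt1, Rhobtb2, Akr1cl, Eipr1 and Bola2, and none had 10. Akr1cl, an aldo-keto reductase relative, had 6 and 19 reads before and none after, at least 12.1-fold lower (adjusted p = 0.0354). Nudt1 had 7 and 7 reads before, at least 6.995-fold lower, and did not pass (adjusted p = 0.0809). With only Treat_MII replicate 2 required at 0 there were 19 such genes, and with only replicate 1 there were 30.

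Markers of granulosa cells, which surround the oocyte, were uneven between the libraries of WT_FGO and of WT_MII. Inha, the inhibin alpha subunit of granulosa cells, had 3 and 88 reads in WT_FGO and 0 and 1 in Treat_MII (adjusted p = 0.102 over all genes and 0.025 among those with at least 60 reads). A single WT_FGO library carried these reads. Hsd17b1, a steroid enzyme of the same cells, had 729.5 and 488 FPKM in WT_FGO, 1956 and 256 in WT_MII and 202 and 204 in Treat_MII and passed in neither direction (adjusted p = 0.413). The whole marker list took 0.101% and 0.229% of recovered reads in WT_FGO and 0.0414% and 0.0464% in Treat_MII, and 4 of 20 markers had at least 60 reads. Their part in the results was not tested.

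Dhx36, the helicase that unfolds G-quadruplexes and that the study followed, had 251 and 255 FPKM in WT_FGO, 166 and 237 in WT_MII and 146 and 118 in Treat_MII. Both treated libraries lay below both WT_FGO libraries, but the change of -0.94 ± 0.34 (SE) passed neither over all genes (adjusted p = 0.203) nor among those with at least 60 reads (adjusted p = 0.0597). Of its family, 4 of 19 tested DEAD and DEAH-box helicases were higher and 5 lower (2 and 0 without a treated library). Ddx3x, an RNA helicase of translation initiation, had 422 and 366 FPKM before and 2689 and 2698 after (change 2.77, SE 0.24, adjusted p = 0.00355).

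Treat_MII and WT_MII share the stage label and differ in the ligand, and were compared in the same fit. Whether the treated pools had reached the same stage is not given by the labels. No gene passed between Treat_MII and WT_MII in limma, either over 15129 genes (881 at an unadjusted p under 0.05) or among those with at least 60 reads (201 at an unadjusted p under 0.05, lowest adjusted p = 0.16). The fit over all genes could miss large changes, as described under the processing, so its lack of calls does not show equal levels. With precision weights from the recovered reads (voom), 165 genes passed over all genes and 10 among those with at least 60 reads. Of the 10, 8 were higher in Treat_MII than in WT_MII (Npm2, Padi6, Ssb, Nlrp14, Aspm, Zp3, Tle6 and Fbxw18) and 2 lower (Zbed3 and Hunk). Npm2, Padi6, Zp3, Tle6 and Nlrp14 of the first were lower in Treat_MII than in WT_FGO by their mean levels. Padi6 for example had 10477 and 8544 FPKM in WT_FGO, 1687 and 1369 in WT_MII and 3324 and 3406 in Treat_MII. Both comparisons share the Treat_MII libraries, so these values stand side by side only.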

How the data were processed

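Ribosome footprints of 6 pools of mouse oocytes were sequenced with Ribo-lite. The authors deposited 1 table of FPKM values, with 22442 rows. Their processing notes name cutadapt 1.14, Bowtie2 2.2.2, STAR 2.5.3a and the mm10 build; the counting program and the handling of duplicate reads are not given in the sources used here. No spike-in scales the values, so each is relative to its library. Of 26 repeated names the row with the highest mean was kept. Whole reads were recovered from the FPKM steps with coding lengths of GENCODE M21: 21617 of 22416 genes (96.4%) gave whole numbers within a tolerance of 0.02.

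Differences were tested with limma 3.58.1 (R 4.3.3) on log2(FPKM + 1) for genes averaging 1 FPKM or more, with all 6 libraries in the fit, a trended prior and Benjamini-Hochberg adjustment at 0.05. On this scale the pseudocount shrinks changes between low values, and where a library is at or near 0 the mean of the logs can also lie above the log ratio of the means. Adjusted p-values of single genes are from this fit unless the text names genes with at least 60 reads. Where all libraries of a group had no read, the fold is a bound against 3 reads per library. The adjusted p-value beside it tests the log2 change with the pseudocount, not the bound. The scripts were tested on simulated data, where large changes were recovered by the fit over genes with at least 60 reads but not by the fit over all genes. Every simulated library had the same dispersion, whereas the replicate SD here was 1.54 in WT_FGO and 0.50 in Treat_MII. The simulation therefore does not show how the fits behave under unequal spread.

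Groups came from the labels. The gene lists and members were chosen with earlier results of these data known, and the study followed Zar1, Btg4, Cnot7, Ccnb1, Pabpn1l and Dhx36. Also named were the 10 largest rises and falls (called, mean of at least 10 FPKM, groups not overlapping, at least 10 reads in each library of the higher group, no predicted name), in each of 39 lists up to 4 called members per direction by p or, where none was called, the 2 highest, and the 5 genes with no read in a group and the most reads in the other. Ccnb2, Cdca8, Cnot1, Cnot2, Cnot3, Cnot6l, Cnot8, Cpeb1, Dazl, Fbxo43, Hprt, Itpr1, Lsm6, Oosp2, Pttg1, Spin1, Ybx2 and the genes of the comparison with WT_MII were named after their values were seen. Replicate numbers did not pair the libraries (correlations of deviations 0.018 to 0.034). Motifs were searched in the longest coding transcript of each gene.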

Additional observations from a re-analysis of the deposited data

How the results depend on the processing

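Over all genes tested, 432 were higher and 151 lower, with a median log2 change of -0.53. A pseudocount of 0.1 (410 and 102), no filter on low values (406 and 126, median -0.29) and a common total (423 and 141) kept both counts within 1.5 times. Genes called lower numbered 232 at a mean of at least 5 FPKM, 65 after centring on the median log2 ratio (median change -0.18) and 74 with a replicate block, where 363 were higher, and quantile normalization moved the median to -0.15. With at least 60 reads the counts were 733 and 413, and at 10 reads per 100000 over both groups, an alternative chosen after seeing the data, 523 and 467. Over all genes, fits of the 4 libraries alone called 31 higher and 1 lower, and fits without the trended prior 56 and 3. Among genes with at least 60 reads the 4 libraries alone gave 617 and 477. Precision weights from voom called 850 and 1986 (median -1.16) and, at 60 reads, 749 and 675, the latter again chosen after seeing the data. The median reversed to 0.13 at 60 reads and 0.063 with voom at 60 reads. Leaving out each replicate gave 457 to 942 higher and 9 to 782 lower (9 and 11 without a treated library, 782 and 663 without a WT_FGO library), and medians from -0.52 to 0.00, the last without WT_FGO replicate 2. Among genes with at least 60 reads these ranges were 241 to 902 and 31 to 405, and quantile normalization called 775 lower. The cause was not tested.

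Genes over 2-fold in mean FPKM + 1, with no test, numbered 3202 higher and 6877 lower, 1843 and 4576 at a mean of at least 5 FPKM, 961 and 815 with at least 60 reads, and 2821 to 5066 higher without a replicate. Genes with no read in WT_FGO numbered 101, 50 at double the minimum and 196 to 315 without a replicate. Those with no read in Treat_MII numbered 5, 0 at double the minimum and 19 to 30 without a replicate. Treat_MII and WT_MII differed in 0 genes by limma, and in 165 (voom) and 10 (voom, at least 60 reads). Of the 151 named genes, 126 lost their call in the fit of the 4 libraries alone, 122 without the trend, 35 with the replicate block and 34 after centring. Leaving out a treated library moved 55 of 78 list counts downward by over 1.5 times. Depth limits single genes before maturation, where 1 read in 1 kb was worth 9.32 to 10.6 FPKM.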
